A study of Oryza sativa Indica Group with 2 samples.

Results

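The genes described here are *PAIR2*, *PAIR3*, *ZEP1*, *CRC1* and *PSS1*, 5 rice genes needed for the chromosome axis, for synapsis or for chromosome movement in meiosis, out of 55337 loci in the table. They were chosen by locus as known genes of this process, and the transcript models of each locus were added to give 1 value per library. The values are FPKM, fragments scaled by transcript length and by the fragments of the library, so that levels can be compared between genes. The material was poly(A) RNA of spikelets, taken from young panicles measuring 40 to 60 mm, in which meiocytes were in prophase I, and each RNA sample pooled spikelets from several panicles. By its label, the *Osam1*-labelled library came from plants with a 2-nucleotide deletion in *OsAM1* that brings in an early stop codon. This allele was made by gamma irradiation of the *indica* variety Zhongxian 3037. By its label, the wild-type-labelled library came from Zhongxian 3037 itself, and plants of both genotypes were grown in the same paddy field. The labels are in doubt, as described below. With 1 library per genotype no difference has a replicate check within the table, and no test was made and no p-value is given. A whole spikelet holds few meiocytes among somatic cells, and in such bulk RNA fewer meiocytes and less RNA per meiocyte cannot be told apart.

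At the start of meiotic prophase each chromosome folds into loops along a protein axis. When homologs pair, a zipper-like structure, the synaptonemal complex, joins their axes, and in this setting DNA breaks are repaired into crossovers. *Osam1* meiocytes stop at leptotene, before synapsis. *PAIR2* encodes a HORMA-domain axis protein, the counterpart of *Arabidopsis* ASY1. *PAIR3* encodes a coiled-coil axis protein, the counterpart of *Arabidopsis* ASY3. *ZEP1* encodes the transverse filament of the synaptonemal complex, the part that bridges the axes, as ZYP1 does in *Arabidopsis*. *CRC1* encodes an AAA-type ATPase of the central region, related to yeast Pch2. *PSS1* encodes a kinesin, a microtubule motor, needed for chromosome behaviour in male meiosis and for pollen fertility.

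The labels of the libraries were taken as the submitters gave them, and every direction below rests on them. The column headed with a capital AA bears the *Osam1* label and the one headed with a small aa bears the wild-type label, the reverse of the usual way of writing a recessive mutant, and exchanging the labels turns the sign of every ratio. The mutated gene, *OsAM1* (LOC_Os03g44760, chromosome 3, 5 transcript models), had a sum of 3.76 FPKM in the *Osam1*-labelled library and 15.1 FPKM in the wild-type-labelled library. A deletion that shifts the reading frame need not change the level of the messenger RNA, so this value does not settle the labels. The directions stated in the text of the study for *OsZIP4* and *OsMSH5* go with the exchanged labels, not with the labels as given. Loci above 0 FPKM numbered 22088 in the *Osam1*-labelled library and 23756 in the wild-type-labelled library. The study, by its own cutoff, counts more expressed genes in the mutant, an order that also goes with the exchanged labels. The labels are thus in doubt, and which library is the mutant was not resolved here. Genes that mark the tissue were present in both libraries. The 6 floral organ identity genes looked up, *OsMADS1*, *OsMADS2*, *OsMADS3*, *OsMADS4*, *OsMADS16* and *OsMADS58*, ranged from 38.4 to 358.3 FPKM in the *Osam1*-labelled library and from 18.3 to 308.3 FPKM in the wild-type-labelled library. The 6 anther genes, *MEL1*, *MSP1*, *UDT1*, *TDR*, *EAT1* and *CYP703A3*, ranged from 17.4 to 39.1 FPKM and from 5.79 to 58.4 FPKM, and none of the 12 genes was at 0.

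All 5 members were above 0 FPKM in both libraries. In the *Osam1*-labelled library the order of the levels was *PSS1*, *ZEP1*, *PAIR2*, *CRC1* and *PAIR3*, from 17.4 down to 2.21 FPKM. In the wild-type-labelled library it was *PSS1*, *ZEP1*, *PAIR2*, *PAIR3* and *CRC1*, from 36.9 down to 1.0 FPKM. *CRC1* and *PAIR3*, the lowest members, thus changed places, and the upper part of the order was the same. Summed over the 5 genes, the level was 54.0 FPKM in the *Osam1*-labelled library and 52.4 FPKM in the wild-type-labelled library. Over all loci the summed FPKM was also higher in the *Osam1*-labelled library, at 1.38e+06 beside 1.14e+06. The sums of the 5 genes are therefore not parts of equal totals. *CRC1* and *ZEP1* were higher in the *Osam1*-labelled library by more than 2-fold, *PSS1* was lower by just over 2-fold, and *PAIR2* and *PAIR3* were within 2-fold. Spread between replicate libraries is unknown here, so neighbours in the order cannot be separated.

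**Figure D1:**
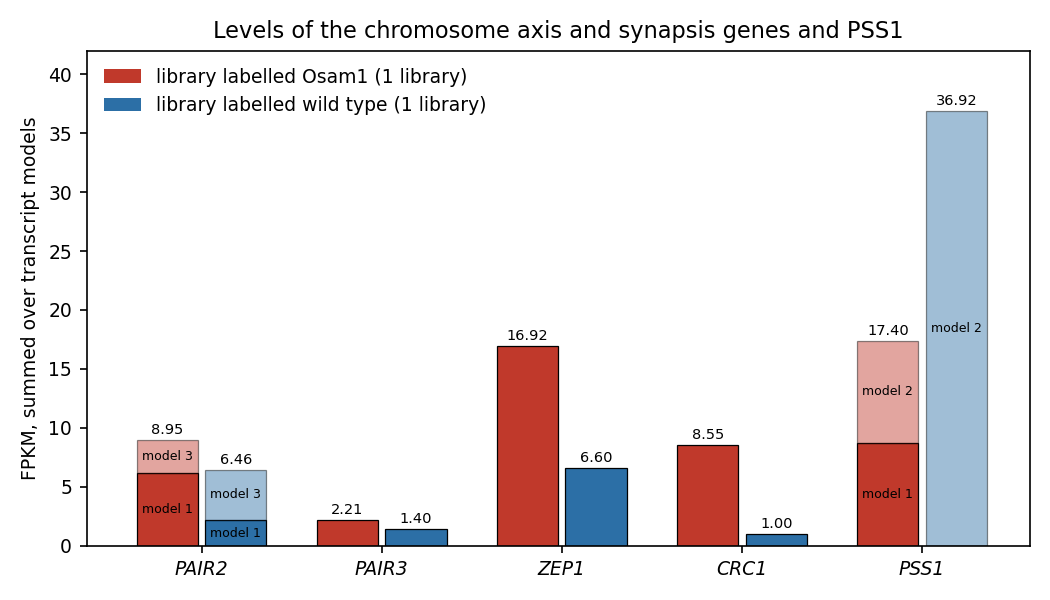
FPKM (vertical axis) of each member in the *Osam1*-labelled library (red) and in the wild-type-labelled library (blue), 1 library each, with transcript models stacked and no error bars. *ZEP1* and *CRC1* stand higher in red, *PSS1* stands higher in blue at 36.9 FPKM, and the models of *PAIR2* and *PSS1* are divided differently in the libraries.

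Both axis genes differed little when their transcript models were summed. *PAIR2* (LOC_Os09g32930, chromosome 9) had 8.95 FPKM in the *Osam1*-labelled library and 6.46 FPKM in the wild-type-labelled library. Its log2 ratio, here and below of labelled *Osam1* over labelled wild type with 1 FPKM added to each value, was 0.42. The sum hides opposite values of its 2 listed models. Model 1 had 6.19 FPKM in the *Osam1*-labelled library and 2.14 FPKM in the wild-type-labelled library, a log2 ratio of 1.20. Model 3 had 2.76 FPKM and 4.32 FPKM, respectively, a log2 ratio of -0.50. Model 1 therefore held 69.2% of the *PAIR2* sum in the *Osam1*-labelled library and 33.1% in the wild-type-labelled library. Such opposite signs were common in the table, being found at 1112 of the 3576 loci with 2 transcript models whose mean reached 1 FPKM (31.1%).

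*PAIR3* (LOC_Os10g26560, chromosome 10) was a low gene with 1 transcript model. It had 2.21 FPKM in the *Osam1*-labelled library and 1.40 FPKM in the wild-type-labelled library, a log2 ratio of 0.42. Only 18.1% and 16.4% of the loci above 0 lay below it in the respective libraries. Zeros are frequent at such levels. Of 3547 loci with 1 transcript model and a mean of 1 to below 3 FPKM, 65.3% were listed at 0 in 1 of the libraries, which *PAIR3* was not.

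The central region genes were both higher in the *Osam1*-labelled library. *ZEP1* (LOC_Os04g37960, chromosome 4, 1 transcript model) had 16.9 FPKM in the *Osam1*-labelled library and 6.60 FPKM in the wild-type-labelled library, a ratio of 2.56 and a log2 ratio of 1.24. Its level lay above that of 55.5% of the loci above 0 in the former library and of 38.4% in the latter. The text of the study describes the levels of *PAIR2* and *ZEP1* as similar in both genotypes. Its calls also rest on a test of reads per gene, whereas *ZEP1* here passed 2-fold by value alone, under either labelling. This *ZEP1* is not the zeaxanthin epoxidase gene of chromosome 4 that RefSeq also lists under the synonym *OsZEP1*. *CRC1* (LOC_Os04g40290, chromosome 4, 1 transcript model) had 8.55 FPKM in the *Osam1*-labelled library and 1.0 FPKM in the wild-type-labelled library. Its ratio of 8.55, with a log2 ratio of 2.26, was the largest difference among the 5 members. *CRC1* stood above 40.4% of the loci above 0 in the *Osam1*-labelled library and above 12.9% in the wild-type-labelled library. The 2 genes lie on the same chromosome, with 218 loci of the table between them.

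*PSS1* (LOC_Os08g02380, chromosome 8) was the highest member in both libraries and the one member that was lower in the *Osam1*-labelled library. Its sums were 17.4 FPKM in the *Osam1*-labelled library and 36.9 FPKM in the wild-type-labelled library, a log2 ratio of -1.04. The study names *PSS1*, along with *HEI10*, *OsMSH5* and *OsZIP4*, as differentially expressed among the known meiosis genes of rice. That call rests on a test of reads per gene as well as on 2-fold, and the text gives no direction for *PSS1*. In the *Osam1*-labelled library the transcript models of *PSS1* had 8.70 FPKM each. In the wild-type-labelled library, model 1 was listed at 0 while the whole 36.9 FPKM belonged to model 2. Taken alone, model 1 was thus higher in the *Osam1*-labelled library and model 2 was lower there, with a log2 ratio of -1.97. Equal values of both models in 1 library beside a 0 for 1 of them in the other were found at 179 of the 3576 loci with 2 transcript models whose mean reached 1 FPKM (5.01%). A PCR assay for *PSS1*, run on other plants, exists among the supplements, and its primers are shown because they define what it detects. The study states that PCR and sequencing patterns matched for every gene tested, *PSS1* and *OsAM1* among them. The PCR values, shown there only in a figure, were not used here. The table gives no transcript sequence, so the primers were not placed on model 1 or model 2.
PSS1 forward primer: aagaagcccatccctgat
PSS1 reverse primer: atgtctgccacggagtag

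The number of reads behind each value is not in the table, but the values carry a trace of it. Where both values are low, their ratio takes preferred steps, as whole reads would give. From these steps in 4326 loci with 1 transcript model and 1 to 10 FPKM in the *Osam1*-labelled library, the relative depth was estimated at 2.37, with the wild-type-labelled library the deeper one. The read totals in the text of the study have the opposite order, with the mutant library the larger, as the exchanged labels would give. Only the order goes with the exchanged labels. In clean, mapped and uniquely matched reads, the libraries of the study differ by less than 2.37-fold. The estimate and those totals were not reconciled here. At the estimated relative depth, and with a tolerance of 0.2% beyond rounding, the smallest whole numbers of reads that give the *PAIR3* values are 2 in the *Osam1*-labelled library and 3 in the wild-type-labelled library. For *CRC1* they are 18 and 5, and for *ZEP1* they are 13 and 12. These are lower bounds, since any multiple gives the same ratio, and they hold only if whole reads were counted and the estimate is right. *PAIR2* and *PSS1* have transcript models that share reads, so no such numbers were derived for them.

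Differences past 2-fold were frequent in this pair of libraries. An absolute log2 ratio of at least 1 was found for 3 of the 5 members, beside 20.8% of all 55337 loci and 44.5% of the 21837 loci whose mean reached 1 FPKM. By direction, 2 members were higher by this measure in the *Osam1*-labelled library, beside 9.57% of all loci and 20.6% of those whose mean reached 1 FPKM. The 1 member that was lower stood beside 11.2% and 23.9%. Over the 5 members the median log2 ratio was 0.42, and over the loci whose mean reached 1 FPKM it was 0.03. The background depends on the level. Among loci whose mean lay within 1.5-fold of that of the member, the share past 2-fold was 77.6% around *PAIR3*, 60.1% around *CRC1*, 52.1% around *PAIR2*, 43.0% around *ZEP1* and 30.2% around *PSS1*. Differences past 2-fold were thus found at many loci with levels like those of *ZEP1*, *CRC1* and *PSS1*.

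**Figure D2:**
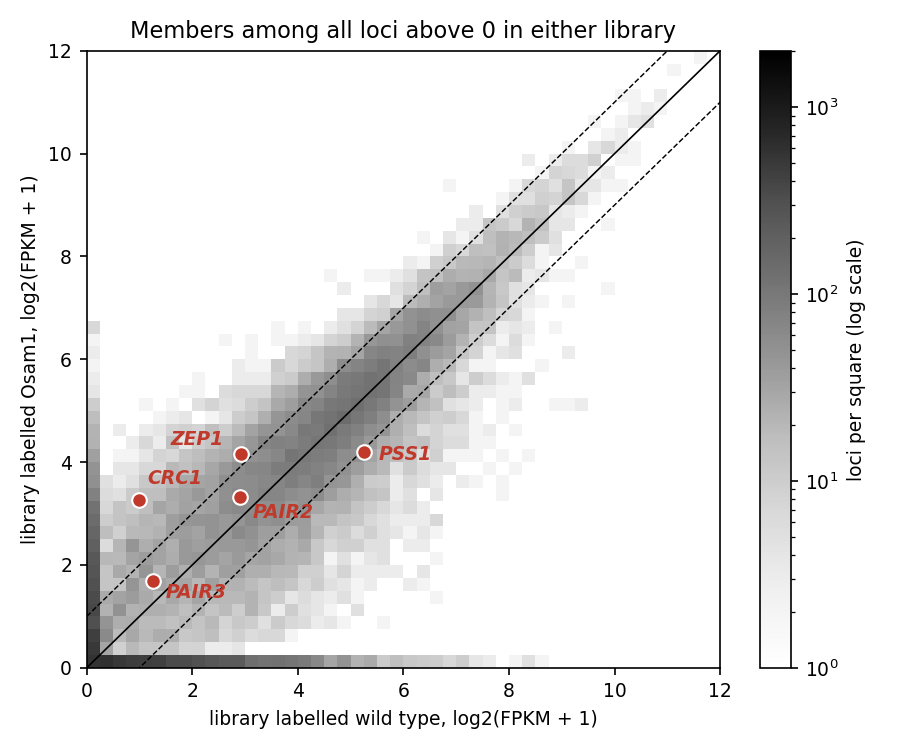
Levels of loci above 0 in either library (27498 loci) as log2(FPKM + 1), with the wild-type-labelled library on the horizontal axis and the *Osam1*-labelled library on the vertical axis. Grey squares count loci on a log scale, 12 loci beyond the axes are not drawn, the solid line marks equal levels and the dashed lines 2-fold differences. *ZEP1* and *CRC1* lie above the upper dashed line, *PSS1* lies at the lower one and *PAIR2* and *PAIR3* lie between them.

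Loci with nearly the same pair of values were found for each member, by distance in the plane of both log2(FPKM + 1) values over the 2 libraries. For *CRC1* the nearest locus was LOC_Os08g02630 on chromosome 8, with 8.60 FPKM in the *Osam1*-labelled library and 1.04 FPKM in the wild-type-labelled library, at a distance of 0.03. For *ZEP1* it was LOC_Os04g59510 on chromosome 4, with 17.0 and 6.67 FPKM, at a distance of 0.02. The nearest loci of *PAIR2*, *PAIR3* and *PSS1* were LOC_Os12g32250, LOC_Os01g66610 and LOC_Os01g36070, all within 0.02. Within a distance of 0.1 there were 4 loci for *CRC1*, 14 for *PAIR3*, 18 for *ZEP1*, 25 for *PSS1* and 31 for *PAIR2*. With only 2 libraries a shared pair of values describes the levels alone.

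The other meiotic genes looked up did not share 1 direction. Of 16 such genes, 3 were higher and 4 were lower by 2-fold or more in the *Osam1*-labelled library. The other 9 were within 2-fold, and the median log2 ratio was -0.22. The share past 2-fold was 43.8%, beside 20.8% of all loci and 44.5% of the loci whose mean reached 1 FPKM. Among the genes acting beside the axis, *OsREC8*, which encodes the meiotic cohesin subunit, had 4.86 FPKM in the *Osam1*-labelled library and 6.47 FPKM in the wild-type-labelled library. *PAIR1*, needed for the breaks that start recombination, had 3.28 and 3.56 FPKM. *OsAM1* itself, with a log2 ratio of -1.76 for the sum over its models, was the only one of these 3 genes past 2-fold. With its first listed model, at 0 in both libraries, *OsAM1* was not past 2-fold. Of its 5 transcript models, models 3, 4 and 5 had 0.63 FPKM each in the *Osam1*-labelled library and 5.04 FPKM each in the wild-type-labelled library, while model 2 had 1.87 FPKM in the former and was listed at 0 in the latter.

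Of 8 genes for break formation and repair, 6 were within 2-fold. *OsMND1*, whose product assists strand exchange, had 21.0 FPKM in the *Osam1*-labelled library and 9.36 FPKM in the wild-type-labelled library, a log2 ratio of 1.09. *OsHOP2*, which encodes the partner of MND1, had 5.50 and 10.6 FPKM, a log2 ratio of -0.84. *OsMRE11*, which encodes a nuclease that trims broken ends, had 1.60 and 6.62 FPKM, a log2 ratio of -1.55. The recombinase genes *OsDMC1A*, with 13.8 and 14.2 FPKM, and *OsDMC1B*, with 15.8 and 12.5 FPKM, are near-identical copies whose reads may have been divided between them.

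Of 5 ZMM genes, which promote crossovers within the synaptonemal complex, 4 passed 2-fold, 2 in each direction. Beside them stood 20.8% of all loci and 44.5% of the loci whose mean reached 1 FPKM. The share was higher at low levels, with 77.6% around *PAIR3*, and 2 of the 4 genes passed through a listed 0. The count is therefore not read as a trait of the ZMM genes. *OsMSH4* had 12.7 FPKM in the *Osam1*-labelled library and 4.50 FPKM in the wild-type-labelled library. Its partner gene *OsMSH5* was listed at 0 in the *Osam1*-labelled library beside 3.66 FPKM in the wild-type-labelled one, whereas *OsZIP4* had 2.81 FPKM and a listed 0, respectively. For both genes the stated direction in the text of the study is the reverse, which bears on the labels. *OsMER3*, which encodes a helicase, had 1.48 and 3.98 FPKM, a log2 ratio of -1.01, just past 2-fold. The text of the study describes its levels as similar. The calls of the study also rest on a test of reads per gene, whereas *OsMER3* here passed 2-fold by value alone. *HEI10*, which encodes a RING-finger protein, had 10.7 and 22.0 FPKM over its transcript models, a log2 ratio of -0.98. The study names *HEI10* as differentially expressed, without a direction in its text. *HEI10* passed 2-fold at -1.05 after the libraries were divided by their median ratio, and, like *PSS1*, it turned sign with its first listed transcript model, at 1.36. Partner genes therefore differed in sign here at *OsMSH4* and *OsMSH5* and at *OsMND1* and *OsHOP2*.

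**Figure D3:**
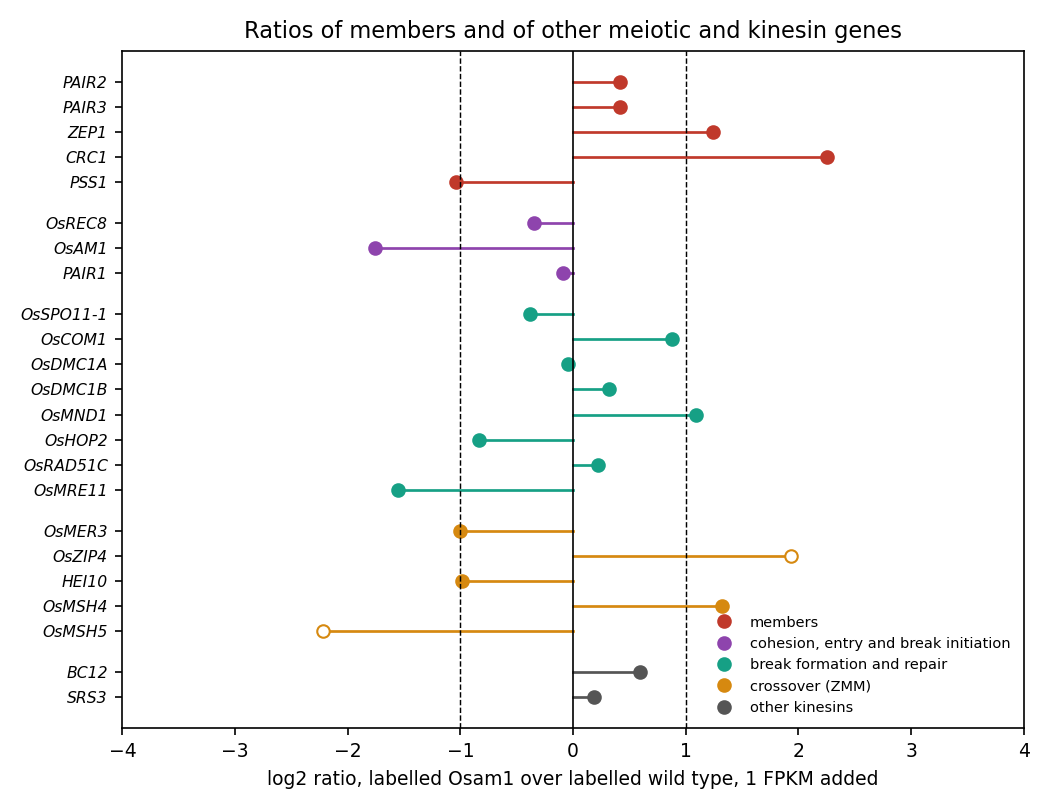
Log2 ratio (horizontal axis) of labelled *Osam1* over labelled wild type, with 1 FPKM added, for the 5 members, the 16 other meiotic genes and 2 other kinesin genes. Dashed lines mark 2-fold, open circles mark genes listed at 0 in 1 library, and each colour holds values on both sides of 0 except for the genes beside the axis (purple) and the other kinesins (grey).

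Set beside *PSS1*, the kinesin genes *BC12*, known for cell wall and stem strength, and *SRS3*, known for grain size, were at higher levels and were within 2-fold. *BC12* had 70.6 FPKM in the *Osam1*-labelled library and 46.5 FPKM in the wild-type-labelled library, a log2 ratio of 0.59. *SRS3* had 118.6 and 104.2 FPKM over its 3 transcript models, a log2 ratio of 0.19. Their sign was opposite to that of *PSS1*, for which the corresponding ratio was -1.04.

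Some genes of other cells and tissues also differed between the libraries. *UDT1*, a regulator of early tapetum development, had 39.1 FPKM in the *Osam1*-labelled library and 5.79 FPKM in the wild-type-labelled library. *CYP703A3*, a tapetal enzyme for the pollen wall, had 17.5 and 58.4 FPKM. Of the 6 anther genes, *UDT1* was past 2-fold upward, *CYP703A3* was past it downward and 4 were within 2-fold, with summed levels of 151.1 and 190.9 FPKM. Of the 6 floral organ identity genes, *OsMADS58* was past 2-fold upward, with 38.4 and 18.3 FPKM, and 5 were within 2-fold, with sums of 890.6 and 626.2 FPKM. Of 2 genes of green tissue for the small subunit of Rubisco, *RBCS3* had 46.0 FPKM in the *Osam1*-labelled library and 3.91 FPKM in the wild-type-labelled library, a log2 ratio of 3.26, larger than that of any member. *RBCS2* had 62.7 and 44.7 FPKM and was within 2-fold. The part of these differences in the values of the members was not tested.

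How the transcript models were combined decided the ratio of *PSS1* and of *PAIR2*. With the first listed model in place of the sum, the log2 ratio of *PSS1* was 3.28 in place of -1.04, and that of *PAIR2* was 1.20 in place of 0.42. *PAIR3*, *ZEP1* and *CRC1* have 1 model each and did not depend on this. For *CRC1*, whose lower value was 1.0 FPKM, the added value mattered, with a log2 ratio of 2.98 when 0.1 FPKM was added and 3.08 when 0.01 FPKM was added. *ZEP1* stayed between 1.17 and 1.36 under these alternatives and when the libraries were divided by their median ratio or by their 75th percentiles.

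**Figure D4:**
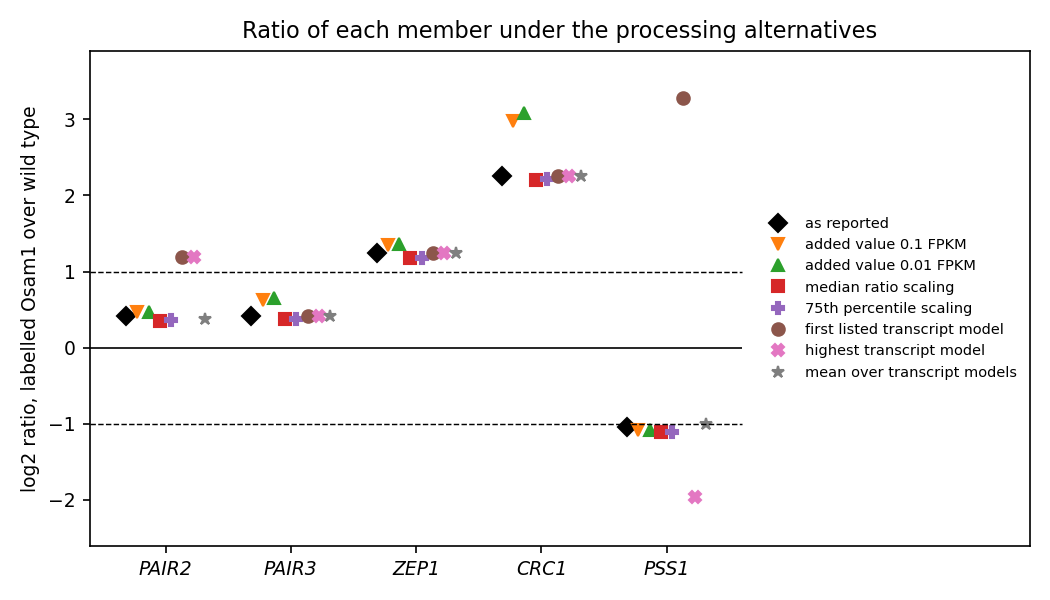
Log2 ratio (vertical axis) of each member as reported (black diamonds) and under 7 processing alternatives (coloured symbols), with dashed lines at 2-fold. *PSS1* moves from -1.04 to 3.28 with its first listed transcript model, *PAIR2* passes 2-fold with its model 1, and *ZEP1* and *CRC1* stay above the upper dashed line.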

How the data were processed

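Poly(A) RNA of 1 library per genotype was sequenced from nondirectional libraries after 18 cycles of PCR, in pairs of 100-base reads. The authors discarded adaptors and reads of low quality, mapped the rest to the genome of the Rice Genome Annotation Project with SOAPaligner/soap2, allowing 2 mismatches, and quantified expression with ERANGE 4.0. The table that the authors deposited gives FPKM to 2 decimals for 65535 transcript models, whereas the methods name RPKM. The annotation release is not given in the sources used here.

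Transcript models were added per locus. Ratios were log2((FPKM + 1)/(FPKM + 1)), and 2-fold was an absolute value of at least 1. A test needs replicates, which this design does not have. Relative depth was the best of 9 candidate steps under whole reads, and led the next (1.18) by 313.2 log units. The candidates were the tallest peak of the ratios in these data and simple multiples of it. The lead thus ranks 2.37 against those multiples only, and other values were not compared. The reading of relative depth was tested on 18 simulated pairs of libraries, and it came within 2% of the true value in 18 of them. The simulated libraries were set far shallower than the read totals of the study, with equal expected levels in both. Steps of whole reads are plain at such a depth. The test therefore cannot show that the reading holds at the depth the study gives. Whether the 2-fold calls are right at the levels of the members was not tested.

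Named genes were the members, every gene of the fixed lists by count, those past 2-fold or beside the axis by value, and the nearest locus of each member. Members and lists were chosen with earlier results of these data known. Values for *HEI10*, *OsHOP2*, *OsDMC1A*, *OsDMC1B*, the other kinesins and the tissue genes were added after they had been seen. Locus numbers were paired with names from general knowledge, and RefSeq (ASM3414082v1) lists the names of the 5 members, and of 25 of the 37 genes looked up, on the same chromosome. Python 3.11.15, numpy 2.4.6, pandas 2.3.3 and matplotlib 3.10.9 were used.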

Additional observations from a re-analysis of the deposited data

How the results depend on the processing

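No paired analysis was possible because each genotype has 1 library. The 53 values recomputed under the alternatives were log2 ratios of the members and counts of members and of loci past 2-fold. A log2 ratio was called kept if its sign and side of 2-fold stayed and it moved by less than 1.5-fold. A count was called kept if it changed by no more than 1.5-fold. By these rules 46 values were kept, 6 moved and 1 changed sign. *PAIR3*, *ZEP1* and *CRC1* have 1 transcript model each, so the choice of model could not move them. All members met the filters on the mean and on values above 0, so the count of members could not change under these filters. Such fixed values are among the 46 kept, which therefore overstate how far the results were tried. With the first listed transcript model the log2 ratio of *PSS1* was 3.28 and that of *PAIR2* was 1.20, and with the highest model they were -1.97 and 1.20, so that 4 members passed 2-fold in both cases. With the mean over models *PSS1* was at -1.0. *CRC1* rose to 2.98 when the added value was 0.1 FPKM and to 3.08 when it was 0.01 FPKM. The count of all loci past 2-fold fell from 11521 to 5669 when a value above 0 was asked for in both libraries. Dividing by the median ratio of 1.05 or by the 75th percentiles moved no member across 2-fold. Exchanging the labels was chosen after seeing the data, and the log2 ratios then were -0.42 for *PAIR2*, -0.42 for *PAIR3*, -1.24 for *ZEP1*, -2.26 for *CRC1* and 1.04 for *PSS1*. The ratio of *PAIR3* may be limited by depth, since its values could rest on as few as 2 and 3 reads at the estimated relative depth. Those numbers are lower bounds, and the true numbers of reads are not known.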
